A study of Mus musculus with 6 samples.

Results

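The genes described here serve antigen presentation by major histocompatibility complex (MHC) class I. They are the heavy chains *H2-K1* and *H2-D1*, their light chain *B2m*, the peptide transporter genes *Tap1* and *Tap2*, the loading factor *Tapbp*, the immunoproteasome subunits *Psmb8*, *Psmb9* and *Psmb10*, and the transactivator *Nlrc5*. They were taken by gene symbol and make up 10 of the 16244 genes in the deposited table. The RNA came from Th17 cells, the IL-17-producing lineage of CD4+ T cells, that carry either wild-type (WT) RORγt, the nuclear receptor that defines the lineage, or its N275D point mutant. There were 3 RNA-seq libraries of each genotype. Naive splenic CD4+ T cells came from C57BL/6 WT mice or from CRISPR knockin RORγtN275D mice on a C57BL/6 background, which came from a different source. Donors in the study were 6 to 12 weeks old unless otherwise stated, and whether the sequenced mutant cells were homozygous is not given in the sources used here. Cells of both genotypes were stimulated with anti-CD3 and anti-CD28 and kept for 3 days in pathogenic Th17 medium. The series' own description lists IL-6, IL-1β and IL-23 in that medium, whereas the methods add TGF-β and antibodies that neutralize IL-4 and IFN-γ. IFN-γ is the best known inducer of class I genes, and which medium these libraries had was not settled here.

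MHC class I molecules display peptides from the cell's own proteins to CD8+ T cells. The immunoproteasome cuts the proteins, TAP carries the peptides into the endoplasmic reticulum (ER), and tapasin, the product of *Tapbp*, holds an empty class I molecule beside TAP until a peptide fits. Most of these genes respond to IFN-γ, and NLRC5 acts on the promoters of many of them in lymphocytes.

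Reads assigned to genes ranged from 17659035 to 18510878 per library. Values are normalized reads, that is reads per gene scaled by 1 factor per library. Sums over the 7 measured of 8 CD4 T cell markers were 39992 to 41715 in WT and 35246 to 36284 in N275D. All 6 libraries expressed the Th17 markers, with sums over *Il17a*, *Il17f*, *Il23r*, *Ccr6* and *Rora* of 62784 to 67445 in WT and 77322 to 78695 in N275D. The mutation is a point change that totals per gene cannot show, so the genotype labels were not checked here. Markers of other cell types were low. Sums over the 6 measured of 8 B cell markers were 163 to 173 in WT and 241 to 308 in N275D. Sums over 6 of 7 CD8 T and natural killer cell markers were 252 to 284 and 368 to 418, and over 9 of 10 myeloid and dendritic cell markers 79.7 to 84.5 and 103 to 120. These shifts were not shared by all markers of a sum. By the rule given below, 1 of the 7 CD4 T cell markers was called higher and 4 lower. Of the 5 B cell markers that could be tested, 4 were called higher and 0 lower. Of 5 CD8 T and natural killer cell markers tested, 4 were called higher and 0 lower. The remaining one, *Cd8a*, named after its values were seen, had means of 32.6 in WT and 27.6 in N275D. Of the 3 myeloid and dendritic cell markers tested, 2 were called higher and 1 lower. The lower one was *Adgre1*, named after its values were seen, with means of 22.6 in WT and 6.64 in N275D. *Klrb1c*, *Ms4a1*, *Csf1r* and *Xcr1* were at 0 in at least 1 library. The 3 sums of other cell types were thus higher in N275D libraries. So was *Sox13*, the 1 measured gene of 5 γδ T cell markers, at 18.2 to 31.4 in WT and 35.1 to 38.5 in N275D. Their part in the values below was not tested.

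Class I genes did not move as a unit. The N275D cells had more RNA of both classical heavy chains, less of *Tapbp*, *Psmb10* and *Nlrc5*, and values that overlapped those of WT cells for *B2m*, *Tap1*, *Tap2*, *Psmb8* and *Psmb9*. A gene was called changed at an adjusted p under 0.05 in limma, a linear model fitted to log2(normalized reads + 1) of all 11908 genes with a mean of at least 10. By this rule 2 of the 10 genes were higher, 3 were lower and 5 were not called. The share called, 5 of 10, was near that over all genes tested, 50.9% (24.7% higher and 26.1% lower). None of the 10 changed by 2-fold, as against 3.59% of all genes that were called at 2-fold. Their median log2 fold change was -0.03, beside -0.00 over all genes. In 5 of the 10 the libraries of both genotypes did not overlap, beside 57.7% of all genes tested. The labels do not say that replicates came from separate cultures or mice, so p-values measure the spread between these libraries, which may be technical. In bulk RNA, fewer cells of a type and less RNA per cell cannot be told apart.

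**Figure D1:**
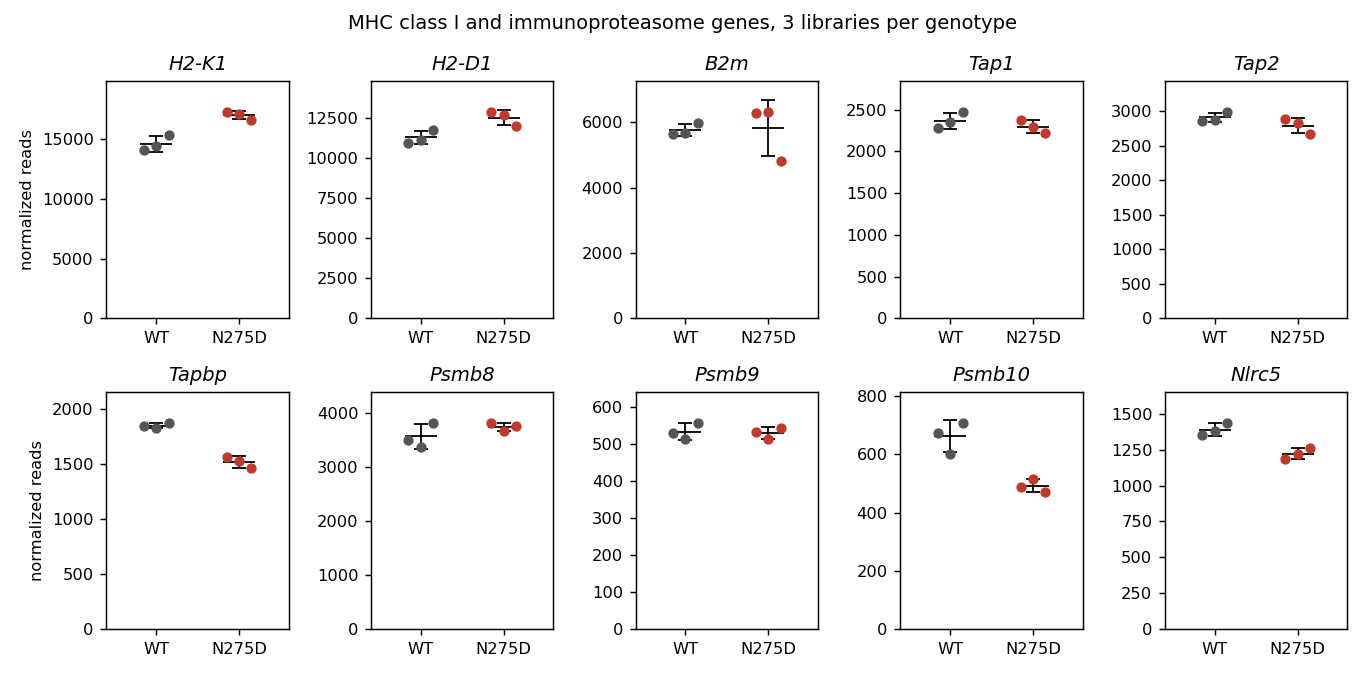
Normalized reads (vertical axes, from 0) of the 10 genes in each library, with replicates 1 to 3 from left to right within WT and N275D. Long bars are means and short bars 1 SD (n = 3). *H2-K1* and *H2-D1* lie above WT in all 3 N275D libraries, *Tapbp*, *Psmb10* and *Nlrc5* lie below it, and the lone low *B2m* value is N275D replicate 3.

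The heavy chain genes *H2-K1* and *H2-D1* encode the polymorphic chains that hold the peptide, and B2m is the invariant chain that both need to reach the cell surface. Their promoters are shown because the product of each heavy chain gene pairs with that of *B2m*. The windows run from 250 bases before to 50 after the annotated start and were taken from RefSeq on GRCm38.p6, the build known as mm10. They lie at chr17:34000298-34000597 on the minus strand for *H2-K1*, chr17:35262844-35263143 on the plus strand for *H2-D1* and chr2:122147437-122147736 on the plus strand for *B2m*. Each is written 5′ to 3′ in the gene's direction. Capitals mark the NF-κB consensus, the CCAAT box (CCAAT or, on the other strand, ATTGG) and the interferon-stimulated response element core (ISRE, read as TTTC, any 2 bases and TTTC, on either strand). For *H2-K1*, 2 windows were available, both from starts that lie inside the gene's annotated span rather than at its 5′ end, and the one farther 5′ of these was used.
H2-K1: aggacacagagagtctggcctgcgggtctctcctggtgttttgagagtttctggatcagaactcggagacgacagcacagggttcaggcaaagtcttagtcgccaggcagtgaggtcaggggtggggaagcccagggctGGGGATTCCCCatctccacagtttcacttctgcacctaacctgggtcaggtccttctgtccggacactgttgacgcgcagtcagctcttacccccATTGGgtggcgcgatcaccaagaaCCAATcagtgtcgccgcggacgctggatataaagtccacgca
H2-D1: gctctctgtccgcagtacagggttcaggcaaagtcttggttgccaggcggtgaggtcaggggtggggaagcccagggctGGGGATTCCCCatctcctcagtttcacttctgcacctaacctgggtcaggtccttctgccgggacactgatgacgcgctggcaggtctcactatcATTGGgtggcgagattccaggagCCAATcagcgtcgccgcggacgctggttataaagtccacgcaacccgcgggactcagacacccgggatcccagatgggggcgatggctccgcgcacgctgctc
B2m: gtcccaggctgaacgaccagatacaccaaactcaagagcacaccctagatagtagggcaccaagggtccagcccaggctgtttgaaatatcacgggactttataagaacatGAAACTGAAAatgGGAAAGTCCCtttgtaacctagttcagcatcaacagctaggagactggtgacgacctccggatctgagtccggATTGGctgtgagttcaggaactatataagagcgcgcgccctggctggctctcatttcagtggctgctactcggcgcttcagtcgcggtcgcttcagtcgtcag

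The *H2-K1* and *H2-D1* windows shared 211 of 239 aligned bases (88.3%), and no other pair among the 8 available windows exceeded 52.8% when each was read in its gene's direction. Both heavy chain promoters held the palindrome GGGGATTCCCC, a CCAAT box on each strand and AGGTCA, the core to which ROR proteins bind. The palindrome begins 111 bases before the start in *H2-K1* and 171 before it in *H2-D1*, and AGGTCA 138 and 198 bases before it. The bases from AGGTCA to the palindrome are the same in both windows. The distances therefore differ with where each start is annotated. The *B2m* window held an NF-κB match and a CCAAT box on the minus strand, and no AGGTCA. It held the only match to the ISRE core, as spelled above, among the 8 windows. Both heavy chain windows held TTTCACTTCT after the palindrome, which that core does not match. Looser forms of the element were not searched for. AGGTCA was in 3 of the 8 windows, those of both heavy chains and that of *Psmb10*, where it lies on the minus strand. On both strands of 32851 RefSeq promoter windows, an NF-κB match occurred in 4.51%, CCAAT in 37.4%, the ISRE core in 3.44% and AGGTCA in 16.3%. Also searched was ACGTG, the hypoxia response core, found among the 8 in the *Psmb10* window only (19.6% of all windows). The interferon-γ-activated site TTCNNNGAA, with N any base, was found in that of *Psmb8* only (8.30%). These matches describe letters, and binding was not measured here.

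*H2-K1* (chromosome 17, 33996012 to 34000619) had 14065, 14429.9 and 15356 normalized reads in the WT libraries and 17272, 17129 and 16634 in the N275D libraries. Every N275D library was above every WT library. The means were 14617 ± 665 and 17011 ± 335 (SD, n = 3), a log2 fold change of 0.22 ± 0.04 (SE, adjusted p = 0.000121 from limma), or 16.4% more. *H2-D1* (chromosome 17, 35263094 to 35267497) had 10956, 11157 and 11743 in WT and 12877, 12679 and 11976 in N275D. The genotypes again did not overlap, but N275D replicate 3 came close to WT replicate 3. Its log2 fold change was 0.15 ± 0.04 (SE, adjusted p = 0.00387 from limma), and a prior without a trend raised the adjusted p to 0.0517, the highest of 14 alternatives that began at 2.64e-05.

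*B2m* (chromosome 2, 122147687 to 122153082) had 5649, 5672 and 5977 normalized reads in WT and 6298, 6317 and 4825 in N275D. The first 2 N275D libraries were the highest of all 6 and the remaining one the lowest. The means were 5766 ± 183 and 5814 ± 856 (SD, n = 3), and the log2 fold change was 0.00 with a 95% interval of -0.15 to 0.16 (adjusted p = 0.992 from limma). In N275D replicate 3, *B2m* lay 0.39 below the mean of the other N275D libraries on the log2 scale (-0.39), the lowest deviation among 4220 genes with a mean of at least 1000. The next were *Ube2m* (-0.35), *Rps29* (-0.34), *Ppp1r14b* (-0.26) and *Cd3e* (-0.24), genes named after their values were seen. Without that library the *B2m* log2 fold change was 0.13 (adjusted p = 0.0248 from limma), so that 1 library decides this value. *Patl2*, which overlaps *B2m* on the opposite strand, had a mean of 0.673 normalized reads in WT and 0.993 in N275D.

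The ratio of *H2-K1* to *B2m* within a library does not depend on how libraries were scaled. On the log2 scale it was 1.32, 1.35 and 1.36 in WT and 1.46, 1.44 and 1.79 in N275D. All N275D libraries were above WT, by 0.22 on average and by 0.11 without N275D replicate 3. The exact two-sided permutation p was 0.1, the smallest that 3 libraries against 3 can give, and 0.167 after adjustment over 5 such ratios.

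The remaining heavy chains are mostly nonclassical or class I-like molecules with narrower tasks, and most of their genes lie near the classical ones. Of a list of 18, 11 could be tested, of which 5 were higher, 2 lower and 4 not called. Over all genes tested, 24.7% were higher and 26.1% lower. The list had a median of 0.03 (log2 fold change). *H2-T10*, *H2-K2* and *Cd1d2* were not among the genes used here, and *H2-Q1*, *H2-T3*, *H2-M2* and *H2-M5* were under the minimum mean. The H2 genes are near-identical in parts, how reads that fit several of them were counted is not given in the sources used here, and so their individual values are uncertain.

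Of the 5 rises, 4 were in the Q region. *H2-Q10*, which encodes a class I molecule known as a serum protein made by the liver, had 202, 202 and 205 normalized reads in WT and 499, 507 and 465 in N275D. Every N275D library was far above every WT library, beyond the spread in either genotype. The log2 fold change was 1.27 (adjusted p = 4.00e-10 from limma). *H2-Q7*, a Qa-2 gene, rose from 258, 298 and 248.5 in WT to 455, 422 and 405 in N275D (log2 fold change 0.67), and its neighbour *H2-Q6*, named after its values were seen, had a log2 fold change of 0.65. *H2-Q2* rose by 1.45 on the log2 scale from the lowest level, 5.05, 13.1 and 4.91 in WT against 16.0, 21.1 and 26.7 in N275D. *Mr1*, which presents microbial vitamin metabolites, was the remaining one (0.26), with a call kept in 6 of 14 alternatives, and is named after its values were seen. Its call was lost under the replicate block (adjusted p = 0.0521 from limma), under quantile normalization, with a minimum mean above 0, and without any 1 library other than N275D replicate 1.

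The 2 falls were *Cd1d1*, a lipid-presenting molecule, at 26.2, 34.3 and 26.5 in WT and 19.0, 13.0 and 16.8 in N275D (log2 fold change -0.80, not called without WT replicate 2), and *H2-T24*, at 119 ± 2.60 and 79.1 ± 11.3 (log2 fold change -0.59). *H2-Q4*, *H2-T22*, *H2-T23*, which encodes the Qa-1 ligand of NKG2A, and *H2-M3* were not called. The share of *H2-K1* and *H2-D1* was taken among the normalized reads of the heavy chain genes used here, class I-like ones included, without correction for length. Despite the larger folds in the Q region, they together held 77.0% to 78.3% of these reads in WT libraries and 78.0% to 78.6% in N275D libraries. These ranges overlap.

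**Figure D2:**
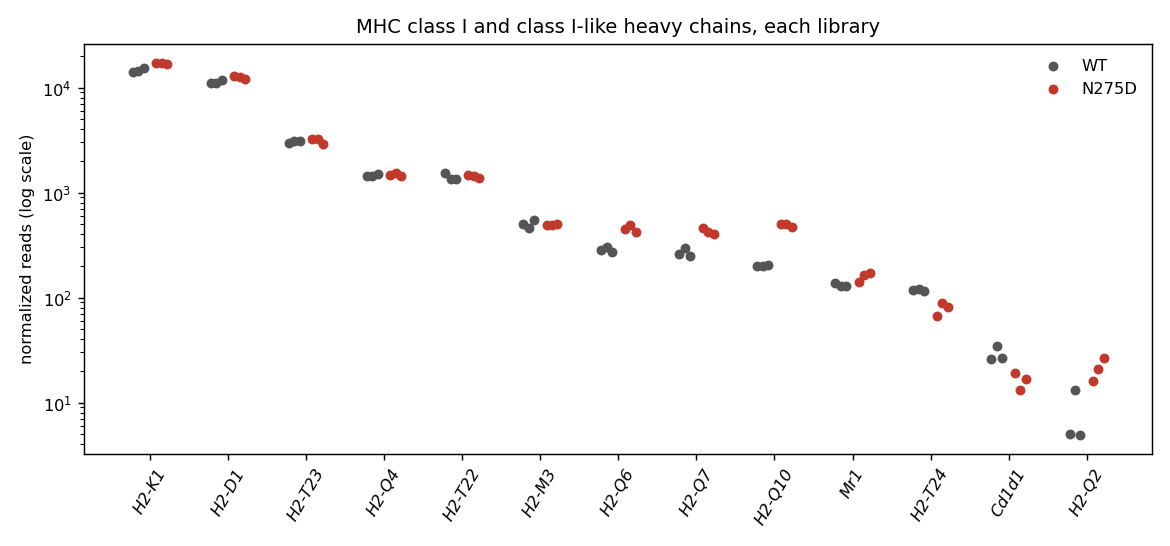
Normalized reads (vertical axis, log scale) of *H2-K1*, *H2-D1* and the 11 other tested heavy chain genes in each of the 3 WT and 3 N275D libraries. The genotypes separate upward in *H2-K1*, *H2-D1*, *Mr1* and the Q region genes *H2-Q2*, *H2-Q6*, *H2-Q7* and *H2-Q10*. They separate downward in *H2-T24* and *Cd1d1*, while *H2-T23*, *H2-Q4*, *H2-T22* and *H2-M3* overlap.

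In peptide transport and loading, both *Tap* genes overlapped between genotypes and *Tapbp* was lower. *Tap1* (chromosome 17, 34187556 to 34197225) and *Tap2* (chromosome 17, 34204479 to 34216321) encode the subunits of the peptide transporter. *Tap1* had 2283, 2346 and 2472 normalized reads in WT and 2378, 2287 and 2223 in N275D. *Tap2* had 2859, 2878 and 2987 in WT and 2881, 2823 and 2666 in N275D. For both genes the genotypes overlapped, and the 95% intervals of the log2 fold change were -0.14 to 0.05 for *Tap1* (adjusted p = 0.427) and -0.15 to 0.03 for *Tap2* (adjusted p = 0.241, limma). TAP is built from 1 copy of each, and the ratio of *Tap1* to *Tap2* was -0.30 ± 0.03 in WT and -0.28 ± 0.02 in N275D on the log2 scale (SD, n = 3; exact permutation p = 0.5). Under quantile normalization both log2 fold changes were slightly above 0 and not called.

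*Tapbp* (chromosome 17, 33919478 to 33929290) had 1840.0, 1824 and 1873 normalized reads in WT and 1562, 1524 and 1461 in N275D. Every N275D library was below every WT library, with little spread in either genotype. The means were 1846 ± 25.2 and 1516 ± 51.4 (SD, n = 3), and the log2 fold change was -0.28 ± 0.04 (SE, 95% interval -0.38 to -0.19, adjusted p = 5.0e-05 from limma), so that it fell by 17.9%. RefSeq places a noncoding gene on the strand opposite *Tapbp*, and others within *Nlrc5*. Whether reads were counted by strand is not given in the sources used here, so both values may hold reads of these genes. *Tapbpl*, the tapasin-related peptide editor that works apart from TAP, fell by 0.13 on the log2 scale, a call kept in 11 of 14 alternatives and lost without N275D replicate 2 or N275D replicate 3 and under quantile normalization. *Erap1*, which trims peptides in the ER, fell by 0.21, also a call kept in 11 of 14, and lost without WT replicate 1 or WT replicate 2 and with a prior without a trend.

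Of 12 loading and ER folding partners, 4 were higher, 3 lower and 5 not called, beside 24.7% higher and 26.1% lower over all genes tested. The list had a median of 0.02 (log2 fold change). The 3 largest rises were of general ER proteins, *Sec61b*, a subunit of the protein translocon (0.28), and the chaperones *Hsp90b1* (0.27) and *Hspa5* (0.23). *Pdia3*, the disulfide isomerase of the loading complex, had 10908, 11279 and 9502 in WT against 11567, 11420.5 and 11421 in N275D (0.12, adjusted p = 0.0470 from limma), a call kept in 8 of 14 alternatives, and is named after its values were seen. Without WT replicate 3, the lowest library, the value was 0.05 and not called, and the call was also lost without any 1 N275D library, with a minimum mean above 0 and with a prior without a trend. *Canx*, the lectin chaperone that receives new heavy chains, fell by 0.10, a call kept in 7 of 14 alternatives. *Calr*, its soluble relative in the loading complex, was at 21469.6 ± 544 in WT and 20394 ± 510.4 in N275D (SD, n = 3) and was not called.

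The immunoproteasome replaces the 3 catalytic β subunits of the constitutive proteasome, and the replacements did not move together. *Psmb8* (chromosome 17, 34198195 to 34201454), *Psmb9* (chromosome 17, 34182030 to 34187330) and *Psmb10* (chromosome 8, 105935728 to 105938392) take the places of *Psmb5*, *Psmb6* and *Psmb7*. *Psmb8* had 3510, 3380.3 and 3826 normalized reads in WT and 3815, 3664 and 3773 in N275D. The genotypes overlapped only through WT replicate 3, the highest of the 6. The log2 fold change was 0.07 ± 0.04 (SE, adjusted p = 0.195 from limma), and it was 0.12 (adjusted p = 0.00354) without WT replicate 3 and 0.13 (adjusted p = 0.0297) under quantile normalization.

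*Psmb9* had 530, 512 and 557 normalized reads in WT and 533, 513 and 542 in N275D. The values of the genotypes were interleaved, with a log2 fold change of -0.01 and a 95% interval of -0.13 to 0.12 (adjusted p = 0.904 from limma). *Psmb9* and *Tap1* stand back to back, with 226 bases between their starts, so that their promoter windows share most of their bases. For both genes the intervals covered 0.

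*Psmb10* had 675, 602 and 709 normalized reads in WT and 488, 516 and 471 in N275D. All N275D libraries were below all WT libraries, and the fall was the largest among the 10 genes. The means were 662 ± 54.7 and 492 ± 22.5 (SD, n = 3), a log2 fold change of -0.43 ± 0.07 (SE, 95% interval -0.57 to -0.28, adjusted p = 6.52e-05 from limma), so that it fell by 25.6%. Unlike *Psmb8* and *Psmb9*, it lies outside the MHC, on chromosome 8.

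Of the 3 constitutive subunits, 2 were called lower in N275D cells. *Psmb5* had 3502, 3527 and 3778 normalized reads in WT and 3334, 3247 and 3218 in N275D (log2 fold change -0.14, adjusted p = 0.00845 from limma), a call lost under quantile normalization (-0.08) and with a prior without a trend. *Psmb7* had 4252, 4150 and 3941 in WT and 3574, 3794 and 3587 in N275D (-0.17, adjusted p = 0.00238). *Psmb6*, with means of 3035 ± 164 and 2818 ± 77.9 (SD, n = 3), missed the threshold (-0.11, adjusted p = 0.0557, and 0.0337 without WT replicate 2), and its 3 N275D libraries were below its 3 WT libraries.

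Each catalytic site can be filled by 1 of a pair, and the log2 ratio of immune to constitutive subunit was therefore taken within each library. *Psmb8* over *Psmb5* was 0.00, -0.06 and 0.02 in WT and 0.19, 0.17 and 0.23 in N275D. N275D libraries were all higher, by 0.21 on average. *Psmb10* over *Psmb7* moved the other way, from -2.65, -2.78 and -2.47 in WT to -2.87, -2.88 and -2.93 in N275D, a difference of -0.25. For *Psmb9* over *Psmb6* the means were -2.51 ± 0.03 and -2.41 ± 0.08 (SD, n = 3), and the libraries overlapped. The exact two-sided permutation p was 0.1 for the first 2 ratios and 0.2 for the last, and 0.167 and 0.25 after adjustment over the 5 ratios. With 3 libraries against 3 none of them can pass 0.05.

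**Figure D3:**
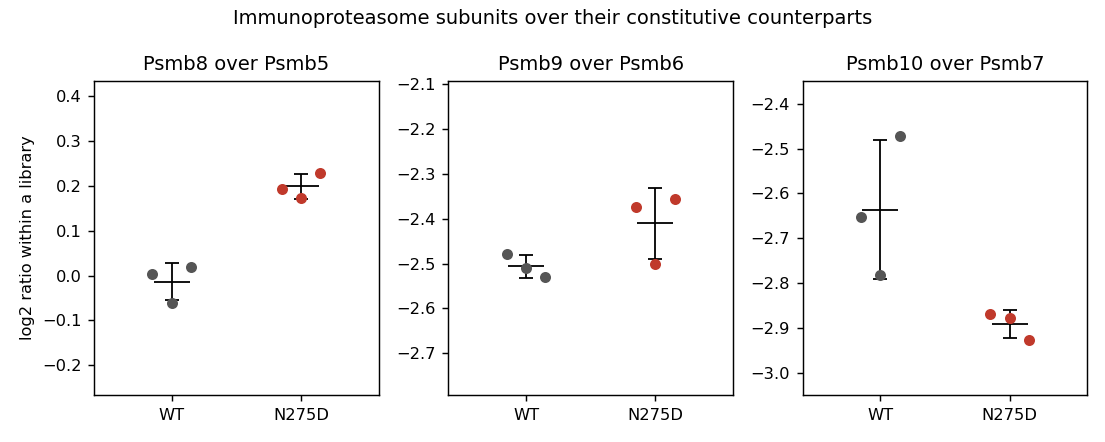
Log2 ratio of each immunoproteasome subunit to the constitutive subunit it replaces (vertical axes, which do not start at 0), in the 3 WT and 3 N275D libraries, with replicates 1 to 3 from left to right, means (long bars) and 1 SD (short bars, n = 3). N275D lies higher for *Psmb8* over *Psmb5* and lower for *Psmb10* over *Psmb7*, and the genotypes overlap for *Psmb9* over *Psmb6*.

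Of 13 proteasome counterparts, activator subunits and assembly factors, 1 was higher, 6 lower and 6 not called. The shares over all genes tested were 24.7% higher and 26.1% lower. The list had a median of -0.12 (log2 fold change). The activator PA28 of the immunoproteasome consists of *Psme1* and *Psme2* products. *Psme1* had 1903 ± 45.8 and 1818 ± 46.5 normalized reads (SD, n = 3) and was not called (-0.07, adjusted p = 0.203 from limma). *Psme2* had 2491, 2296 and 2555 in WT and 2709, 2760 and 2557 in N275D, with N275D replicate 3 just above WT replicate 3. Its log2 fold change was 0.13 (adjusted p = 0.0306), called in 8 of 14 alternatives. The largest falls were of *Psmg3*, an assembly chaperone (-0.38), *Psme3*, the nuclear activator PA28γ (-0.37, from 7558 ± 135 to 5828 ± 118, SD, n = 3), and *Psmg1*, another assembly chaperone (-0.25).

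Cytosolic peptidases shorten or destroy proteasome products before TAP can take them. Of 11, 6 were lower, 5 were not called and 0 were higher, beside 26.1% lower and 24.7% higher over all genes tested. Under quantile normalization 2 were called higher. The list had a median of -0.20 (log2 fold change). The falls were led by *Thop1*, thimet oligopeptidase (2315 ± 40.1 in WT and 1803 ± 40.8 in N275D, SD, n = 3, -0.36), *Lap3*, leucine aminopeptidase (-0.28), and *Ide*, insulin-degrading enzyme (-0.24). By limma at an unadjusted p under 0.05 the number higher was also 0.

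*Nlrc5* (chromosome 8, 94434335 to 94527272) encodes the class I transactivator. It had 1351, 1381 and 1440.0 normalized reads in WT and 1189, 1221 and 1264 in N275D. The genotypes did not overlap. The means were 1391 ± 45.1 and 1225 ± 37.7 (SD, n = 3), a log2 fold change of -0.18 ± 0.05 (SE, 95% interval -0.28 to -0.08, adjusted p = 0.00384 from limma), so that it fell by 11.9%, opposite in sign to *H2-K1* and *H2-D1*. Its class II relative *Ciita* was low, at 24.6 ± 1.70 and 22.6 ± 0.46 (SD, n = 3; -0.12, adjusted p = 0.656).

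Of 13 factors known at class I promoters, 4 were lower, 9 were not called and 0 were higher (1 under quantile normalization). The share lower was near that over all genes tested, 26.1%, whereas 24.7% of all genes tested were higher. The list had a median of -0.05 (log2 fold change). *Creb1*, which binds the conserved cyclic AMP response element of these promoters, fell most (-0.42, from 1386 ± 86.6 to 1038 ± 63.8, SD, n = 3). The NF-Y subunits *Nfya* (-0.23) and *Nfyc* (-0.21), which bind the CCAAT box, also fell. The remaining NF-Y subunit of the list, *Nfyb*, was not called (-0.04, adjusted p = 0.515 from limma) and is named after its values were seen. *Irf1*, which binds the interferon-stimulated element, had 548, 632 and 591 in WT and 563, 593 and 558 in N275D and was not called (-0.05, adjusted p = 0.565 from limma). By limma at an unadjusted p under 0.05 the number higher was also 0. Among the 8 promoter windows, CCAAT was found in 6, TGACG (the core to which CREB1 binds, in 20.8% of all windows) in 5 and an NF-κB match in 3. These windows are not independent. Those of *Tap1* and *Psmb9* share most of their bases, and their CCAAT and TGACG matches are the same sites, counted for both genes. The *H2-K1* and *H2-D1* windows are also similar in sequence. The counts therefore do not measure an enrichment over all windows. Windows for *Tap2* and *Nlrc5* were not used here.

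IFN-γ is the cytokine that most strongly induces class I genes. Of 11 genes of its signalling pathway, 8 were higher, 2 lower and 1 not called, beside 24.7% higher and 26.1% lower over all genes tested. The list had a median of 0.44 (log2 fold change). It mixes activating and inhibiting genes, so the count does not measure the activity of the pathway. *Ifng* itself had 78.7, 88.8 and 95.3 normalized reads in WT and 179, 138 and 147 in N275D (log2 fold change 0.81, adjusted p = 3.54e-05 from limma). The receptor genes rose as well, *Ifngr1* from 322 ± 36.4 to 442 ± 18.9 (0.46) and *Ifngr2* from 380.3 ± 11.2 to 516 ± 5.32 (SD, n = 3; 0.44). *Socs3*, a feedback inhibitor of cytokine receptors, rose most (0.96), and *Irf9*, a DNA-binding interferon response factor, rose by 0.53.

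The 2 falls were of *Jak2*, the kinase on IFNGR2 (-0.40, from 6901 ± 619 to 5234 ± 204, SD, n = 3), and the phosphatase *Ptpn11* (-0.28).

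Of 18 genes known to be induced by IFN-γ, 17 could be tested, since *Cxcl9* was under the minimum mean. Of these, 7 were higher, 2 lower and 8 not called, beside 24.7% higher and 26.1% lower over all genes tested. The list had a median of 0.13 (log2 fold change). The largest rises were of the chemokine *Cxcl10* (0.96, from 41.4, 67.6 and 63.8 in WT to 114, 110 and 108 in N275D) and the guanylate-binding proteins *Gbp7* (0.65) and *Gbp8* (0.54). The falls were of the GTPase genes *Tgtp1* (-0.53) and *Ifi47* (-0.22, not called without N275D replicate 2).

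**Figure D4:**
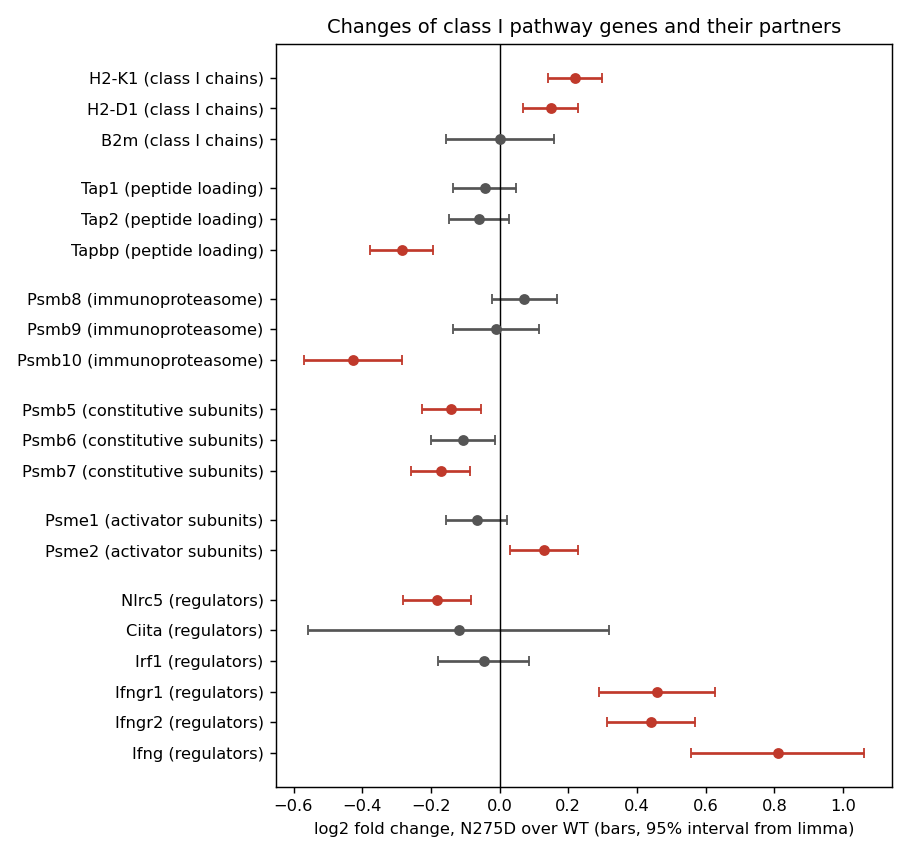
Log2 fold change of N275D over WT (horizontal axis) with 95% intervals from limma for the 10 genes, the constitutive and activator subunits and the regulators, grouped by role. Red marks an adjusted p under 0.05. *H2-K1* (0.22) and *H2-D1* (0.15) lie right of 0, *Tapbp* (-0.28), *Psmb10* (-0.43) and *Nlrc5* (-0.18) lie left of it, and *Ifng* (0.81) lies farthest right.

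Levels of different genes can be compared only per length, here as normalized reads per kilobase of all exons of a gene joined. In WT libraries *B2m* was highest at 6705 ± 213 (SD, n = 3), followed by *H2-K1* (4975 ± 226) and *H2-D1* (4376 ± 159). *Psmb8* (1057 ± 67.8), *Tap2* (769 ± 18.2), *Tapbp* (509 ± 6.94), *Tap1* (432 ± 17.6) and *Psmb10* (388 ± 32.1) came next, and *Nlrc5* (164 ± 5.31) and *Psmb9* (146 ± 6.13) were lowest. No neighbours in this order overlapped between WT libraries. In N275D libraries 3 pairs of neighbours overlapped on this scale, *B2m* (6760.0 ± 995) with *H2-K1* (5790.1 ± 114), *Tap1* (419 ± 14.2) with *Tapbp* (418 ± 14.2), and *Psmb9* (145 ± 4.13) with *Nlrc5* (144 ± 4.44). The order depends on the length taken. Per kilobase of the longest transcript, *H2-K1* stood above *B2m* in WT (7800 ± 355 against 6705 ± 213).

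The pooled SD within a genotype was 0.04 to 0.16 on the log2 scale across the 10 genes, with *B2m* the most variable, beside a median of 0.08 over all genes tested. WT replicate 3 was the highest WT library for all 10 genes, whereas it was the highest for 40.5% of all genes tested. N275D replicate 3 was the lowest N275D library for 7 of the 10, beside 34.7% of all genes. Calls were also recomputed without each library in turn. In all 6 of these fits *H2-K1* and *H2-D1* were still called higher and *Tapbp*, *Psmb10* and *Nlrc5* still called lower.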

How the data were processed

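The authors, by their methods, used STAR to align trimmed reads to mm10, featureCounts to assign them to genes and DESeq2 to compare genotypes. The annotation and the handling of reads that fit several genes are not given in the sources used here. Each deposited signal value is a read number scaled by the authors with 1 factor per library, of which 100% of values in every library are whole multiples (tolerance 1e-06). The authors' table also holds group averages, log2 fold changes and q-values of their own, which were not used, and 0 columns of samples were left unmapped.

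Samples were grouped by their labels. Values were transformed as log2(normalized reads + 1), a scale that understates the change of low genes. A mean of 10 or more was required, and the 11908 genes that passed were fitted with limma (version 3.58.1, R 4.3.3, trended prior, no block), and p-values were adjusted over all of them by the Benjamini-Hochberg method. Ratios within a library were compared by exact permutation tests. The script was tested on simulated data. Named genes are the 10 members, their constitutive and activator counterparts, *Ifng*, *Ifngr1*, *Ifngr2*, *Irf1* and *Ciita*, and the 3 largest rises and falls among the calls of each list. Some genes of the lists are not reported here, and counts and sums leave them out. Members and lists were chosen with earlier results of these data known. Coordinates and promoters are from RefSeq on GRCm38.p6, which matched 16135 of 16244 genes, and exon lengths from GENCODE. Motifs were searched on both strands. Alternatives were other pseudocounts (0.1 and 10), other minimum means (above 0, or at least 100), TMM and quantile scaling, a prior without a trend, a replicate block, the longest transcript as length, and each library left out.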

Additional observations from a re-analysis of the deposited data

How the results depend on the processing

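Over 14 alternatives, the log2 fold changes of the 10 genes stayed on the same side of the threshold with the same sign in 128 of 140 comparisons. Reversed signs were confined to genes that were not called: *Tap1* was at 0.021 and *Tap2* at 0.0071 under quantile normalization, and with 1 library left out *B2m* ranged from -0.064 to 0.13, *Psmb9* from -0.038 to 0.022, *Irf1* from -0.099 to 0.0046, *H2-M3* from -0.079 to 0.038, *H2-Q4* from -0.015 to 0.037 and *H2-T22* from -0.020 to 0.082. *B2m* was below 0 without WT replicate 1 or 2 or N275D replicate 1 or 2, *Psmb9* above 0 without WT replicate 3 or N275D replicate 2, and *Irf1* above 0 without WT replicate 2. Genes called numbered 6056, 5162 to 6396 with 1 library left out, and 5288 to 6068 otherwise. Genes at 2-fold numbered 427, but 259 with a pseudocount of 10, 703 with a minimum mean above 0, 162 with a minimum mean of 100, and 424 to 450 with 1 library left out. Of the 10 genes, 2 were higher, 1 with a prior without a trend and 2 to 3 with 1 library left out, and 3 were lower throughout.

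The labels do not say whether replicate numbers pair the libraries. Deviations of same-numbered libraries correlated at -0.05, 0.04 and -0.08, which with 3 libraries per genotype cannot exclude pairing. With the replicate number as a block, 5727 genes were called, and the calls of *Psme2* (adjusted p = 0.0507), *Mr1* (adjusted p = 0.0521) and *Canx* (adjusted p = 0.0548) were lost and no other call of a named gene.

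Called higher among the other heavy chains were 5 genes, and 4 to 5 in the alternatives. Called lower among them were 2 genes, but 0 with a minimum mean of 100, and 1 to 2 with 1 library left out (1 without WT replicate 2). Lower loading partners numbered 3, but 1 under quantile normalization, 1 with a prior without a trend, and 1 to 3 with 1 library left out (1 without WT replicate 1 or 2 or N275D replicate 2). The 1 higher proteasome partner, *Psme2*, became 0 with a minimum mean above 0, a prior without a trend or the block, and 0 to 1 with 1 library left out (0 without WT replicate 2 or N275D replicate 1 or 2). Under quantile normalization 2 peptidases and 1 promoter factor were called higher, against 0. The 7 higher and 2 lower IFN-γ-induced genes became 4 to 7 and 1 to 3 with 1 library left out (4 without N275D replicate 1). Ratio differences with 1 library left out were 0.19 to 0.23 for *Psmb8* over *Psmb5*, 0.069 to 0.14 for *Psmb9* over *Psmb6*, -0.33 to -0.17 for *Psmb10* over *Psmb7*, 0.0028 to 0.029 for *Tap1* over *Tap2* and 0.11 to 0.28 for *H2-K1* over *B2m*. Per kilobase of the longest transcript, WT levels were 7800 for *H2-K1*, 5369 for *H2-D1*, 1873 for *Psmb8*, 845 for *Tap2*, 637 for *Tapbp*, 605 for *Tap1*, 505 for *Psmb10*, 185 for *Psmb9* and 184 for *Nlrc5*. The causes of these changes were not tested. Planned count tests on the reads behind the values were not run.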
